A study of Mus musculus with 6 samples.

Results

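The subunits of oxidative phosphorylation are the proteins that build the electron transport chain and the ATP synthase of the mitochondrial inner membrane. Their transcripts were taken from a gene count table of knee joint cartilaginous tissue by name. The protein-coding rows used were those whose symbols begin with *Nduf*, *Uqcr*, *Atp5*, *Cox4*, *Cox5*, *Cox6*, *Cox7*, *Cox8*, *mt-Nd*, *mt-Co*, *mt-Cytb* or *mt-Atp*, together with *Sdha*, *Sdhb*, *Sdhc*, *Sdhd*, *Cyc1* and *Cycs*. The assembly factors named *Ndufaf* and the gene *Ndufa4l2* were left out. This rule gave 102 of the 55487 rows of the table. Of these members, 89 are encoded in the nucleus, on 19 chromosomes, and 13 in the mitochondrial genome. Complex I had 44 members, complex II 4, complex III 10, complex IV 23 and complex V 20, and cytochrome c had 1.

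Poly(A) RNA was sequenced from 3 wild-type (WT) libraries and 3 libraries with a conditional knockout of the β-globin gene (*Hbb*-cKO), all from mice at postnatal day 6. The labels give the WT animals as wildtype with no further allele, and the knockout as one in chondrocytes. In the study the floxed allele spans *Hbb-bs* and *Hbb-bt*, the adult genes of β-globin, on a C57BL/6J background, and the mice it calls *Hbb*-cKO carried a tamoxifen-inducible Cre under the *Col2a1* promoter, which is active in chondrocytes. A Cre under the *Prx1* promoter, active in limb mesenchyme, was used in other crosses of the study. The labels name neither the Cre driver nor any tamoxifen for the sequenced animals, nor the number of mice behind a library. The comparison asks how transcripts of the respiratory chain stood in cartilaginous tissue labelled *Hbb*-cKO and in tissue labelled WT.

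In the respiratory chain, electrons from NADH enter at complex I and those from succinate at complex II. They pass through complex III and the small carrier cytochrome c to complex IV, which hands them to oxygen, and complex V makes ATP from the proton gradient that the pumping complexes build. Most subunits are encoded in the nucleus and imported, while a small set of core subunits is transcribed from the circular mitochondrial genome, and complex II is wholly nuclear. Cartilage has no blood vessels, and chondrocytes are known for drawing most of their ATP from glycolysis, whereas skeletal muscle is rich in mitochondria.

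The counts of several members cannot be read without their sequence, since a second row of the table has nearly the same one. Pseudogenes are copies of a gene elsewhere in the genome, and pieces of the mitochondrial genome are also found in nuclear chromosomes. The 60-base stretches below, 5′ to 3′ and read from the GENCODE transcripts of build GRCm38, are shown because members and copies are the same or nearly the same there. In the first pair, the first stretch lies in *mt-Co1* at chrM:6390-6449 (plus strand) and the second in *Gm29216* at chr1:24616129-24616188 (minus strand). They differ by A4T, counted from 1 at the left end with the base of *mt-Co1* first, and that base is in capitals.
mt-Co1: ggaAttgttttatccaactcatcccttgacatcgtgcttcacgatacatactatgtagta
Gm29216: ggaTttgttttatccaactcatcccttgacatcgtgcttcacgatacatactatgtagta
The next stretches are identical in member and copy, so each is printed once. They are from *mt-Atp6* at chrM:7927-7986 (plus strand) and *Gm10925* at chr1:24614592-24614651 (minus strand), from *Atp5g2* at chr15:102665796-102665855 and *Gm10175* at chr7:23947134-23947193 (both minus strand), and from *Cox7c* at chr13:86046616-86046675 and *Gm12338* at chr11:75599895-75599954 (both minus strand).
mt-Atp6 and Gm10925: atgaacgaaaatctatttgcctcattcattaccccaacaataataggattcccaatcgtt
Atp5g2 and Gm10175: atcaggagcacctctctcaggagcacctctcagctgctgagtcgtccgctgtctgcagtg
Cox7c and Gm12338: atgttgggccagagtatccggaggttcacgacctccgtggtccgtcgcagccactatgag

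Libraries held 16544800 to 17475496 counts in WT, and 17405688 to 20969914 in *Hbb*-cKO. The targeted genes *Hbb-bs* and *Hbb-bt* together had 16811, 12449 and 6912 CPM (the unit of counts relative to the TMM-scaled total of a library) in WT libraries 1, 2 and 3, and 4195, 5444 and 5014 CPM in *Hbb*-cKO libraries 1, 2 and 3. The knockout mean was 40.5% of WT and the groups did not overlap (two-sided exact permutation test, p = 0.1, the smallest that 3 against 3 libraries can give). Red cell transcripts that were not targeted were also lower in every knockout library, with a log2 fold change of −1.31 (SE 0.38) for *Hba-a1*, −1.43 (SE 0.42) for *Hba-a2* and −1.60 (SE 0.33) for *Alas2*, the first enzyme of erythroid haem synthesis, against −1.28 (SE 0.30) for *Hbb-bs* and −1.32 (SE 0.32) for *Hbb-bt*. A loss of *Hbb* in chondrocytes and a lower content of red cell RNA cannot be told apart in these sums. All 14 chondrocyte markers checked were detected, with *Col2a1* between 11310 and 38290 CPM. The 21 skeletal muscle markers were detected as well, and summed to between 40950 and 65950 CPM in WT and between 37270 and 46540 CPM in *Hbb*-cKO. In RNA from whole tissue, fewer cells of a type and less RNA per cell cannot be told apart. In what follows, 3 values in a row belong to libraries 1, 2 and 3 of the group named.

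The members were well covered. At least 500 counts in every library were recorded for 90 of the 102, and 99 passed the filter on low counts, 86 nuclear and all 13 mitochondrially encoded. The 3 that did not were a second annotated copy of *Atp5o* with 0 counts, *Cox7b2* with 0 counts, and *Cox8c*, with 0, 5 and 3 counts in WT and 5, 0 and 0 in *Hbb*-cKO. *Cox7b2* and *Cox8c* are complex IV isoforms best known from testis. For *Cox7b2* and *Cox8c* a count of 0 says that the transcript was not detectable at this depth. The 0 of the second *Atp5o* row cannot be read in that way. That row overlaps exons of the first *Atp5o* row and of *Donson* on the same strand, and 89.8% of its stretches of 50 bases occur in other genes.

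Mitochondrially encoded members took 3.71%, 3.15% and 3.93% of all counts in WT and 3.65%, 3.51% and 3.17% in *Hbb*-cKO. Nuclear members took 1.16%, 1.33% and 1.43% in WT and 1.32%, 1.19% and 1.19% in *Hbb*-cKO. Neither share separated the groups, and WT library 1 had the lowest nuclear share while WT library 2 had the lowest mitochondrial one. The summed CPM of the mitochondrially encoded members was 3.21, 2.36 and 2.75 times that of the nuclear members in WT and 2.75, 2.96 and 2.68 times in *Hbb*-cKO. Summed by complex and genome of origin, the CPM overlapped between the groups in every case, and the ratio of the *Hbb*-cKO to the WT mean ran from 0.835 for *Cycs* to 0.973 for the mitochondrially encoded members of complex I. These shares, ratios and sums count the member rows alone. Counts under copies of nearly the same sequence are outside them, such as 54469 counts of *Gm28661*, a copy of *mt-Co2*, in WT library 1.

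Levels of different genes were compared as the WT mean CPM per 1000 bases of the main coding transcript, with s.e.m. over 3 libraries. On this scale *mt-Co1*, the catalytic subunit of complex IV, led at 7750 ± 676. The next were *mt-Co2* at 4685 ± 135, which takes electrons from cytochrome c, *mt-Cytb* at 4174 ± 230, the cytochrome b of complex III, *mt-Nd1* at 3962 ± 231 in complex I, and *mt-Co3* at 3673 ± 135. *mt-Nd1* differed from both *mt-Cytb* above it and *mt-Co3* below it by less than their summed errors, while *mt-Co1* and *mt-Co2* stood clear, and the next, *mt-Nd4*, was lower at 2245 ± 133. Among nuclear members the highest was *Atp5b*, the catalytic β subunit of the ATP synthase, at 820 ± 99.2, and *Atp5e*, its ε subunit, came next at 701 ± 93.0, within their summed errors. The highest of complex IV was *Cox4i1* at 475 ± 25.4. The highest of complex I was *Ndufb9* at 264 ± 18.0, of complex II *Sdhb* at 162 ± 12.7 and of complex III *Uqcr10* at 298 ± 22.2. The median of the mitochondrially encoded members was 21.4 times that of the nuclear members in complex I, 20.8 times in complex III, 23.2 times in complex IV and 6.85 times in complex V.

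The lowest nuclear rows per length were *Ndufs3* at 1.32 ± 0.0995 in complex I and *Atp5g2* at 5.98 ± 0.633 in complex V. The highest row of complex I was thus 200 times the lowest, and that of complex V 137 times. Both low rows have copies that hold most of the counts of the pair. A row was called a look-alike of a member if at least 20% of its own 50-base windows occur in the member's main transcript. Only protein-coding and pseudogene rows were considered. Rows that are members themselves, and rows whose exons overlap those of the member, were left out. *Cox5b-ps* thus stayed a member of complex IV, though 61.9% of its windows also occur in transcripts of *Cox5b*. There were 46 look-alike rows for 28 members, 21 nuclear and 7 mitochondrially encoded. Counts of *Ndufs3*, a core subunit of complex I, and of its look-alike *Gm12251* added up to a sum of which 94.3% lay in the copy. For *Atp5g2*, 1 of the 3 genes for ATP synthase subunit c, 98.6% of the sum lay in the copies. With look-alike rows added, *Ndufs3* stood at 22.4 ± 1.65 and *Atp5g2* at 427 ± 28.3. The highest to lowest ratio of complex I was then 19.2, and complex V ran from 43.3 (*Atp5md*) to 820 (*Atp5b*). The sources used here do not give how reads that match both places were assigned.

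**Figure D1:**
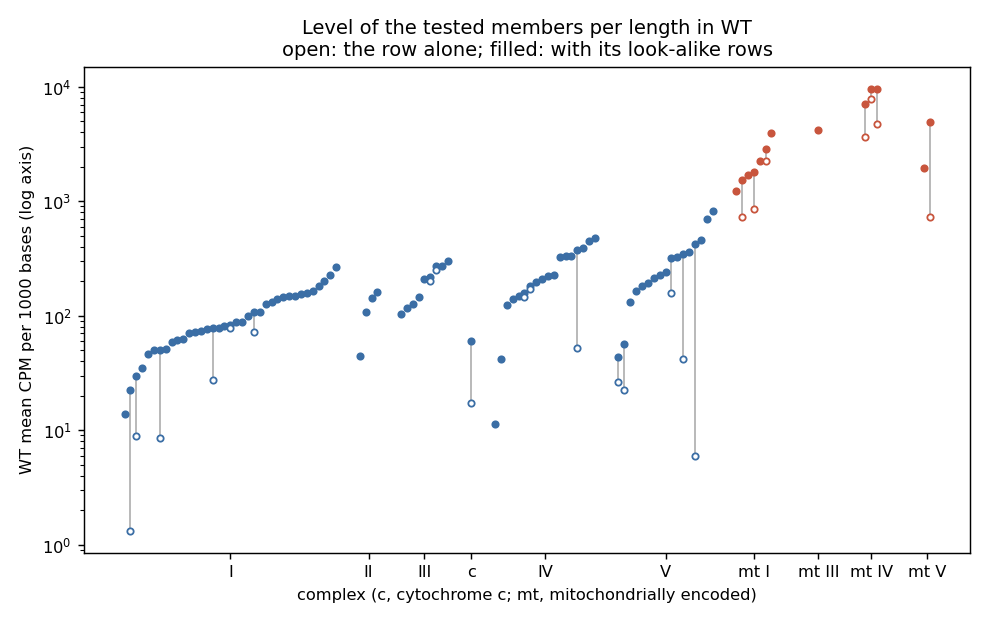
Level of the 99 tested members in WT as mean CPM per 1000 bases of transcript (log axis), grouped by complex, nuclear members in blue and mitochondrially encoded ones (mt) in red. Open points are the row alone and filled points the row with its look-alike rows; *Atp5g2* goes from 5.98 to 427 and *mt-Atp6* from 729 to 4946.

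For 15 members, 10 nuclear and 5 mitochondrially encoded, look-alike rows held more than 50% of the summed counts. Among the nuclear ones were *Atp5l* with 88.3%, *Cox7c* with 85.2%, *Ndufb4* with 84.0%, *Cycs* with 71.9% and *Ndufab1* with 71.0%. The row *Gm10925*, which shares the *mt-Atp6* stretch printed above, held 85.2% of its pair. For *mt-Co2*, *mt-Co3*, *mt-Nd3* and *mt-Nd4l* the share was between 50.4% and 52.0%, so member and copy had nearly equal counts. With the look-alike rows, *mt-Co2* reached 9625 ± 206 and *mt-Co1* 9621 ± 630 CPM per 1000 bases and could no longer be ordered, *mt-Co3* stood at 7126 ± 250 and *mt-Atp6* at 4946 ± 87.8. The ratio of the mitochondrially encoded to the nuclear median was then 44.9 in complex IV and 14.2 in complex V.

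The split between member and copy was close in all 6 libraries for *mt-Atp6*, whose copy held between 84.9% and 85.4%. The copy of *Ndufa12* held 64.2%, 63.2% and 66.7% in WT and 49.9%, 53.1% and 51.8% in *Hbb*-cKO, and the copy of *mt-Co3* 47.6%, 49.2% and 48.5% in WT and 52.9%, 52.1% and 51.9% in *Hbb*-cKO. The WT libraries were thus all higher for *Ndufa12* and all lower for *mt-Co3*. The groups did not overlap in this share for 5 of the 28 members with look-alike rows. The others were *Atp5g1*, *Ndufs6* and *Atp5o*, with WT all higher. Of all genes tested, 8.96% were all lower and 8.70% all higher in *Hbb*-cKO by CPM, and the shares were not tested. The copy of *Ndufs5* held 56.0% in *Hbb*-cKO library 1 and between 27.2% and 32.7% in the other 5.

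**Figure D2:**
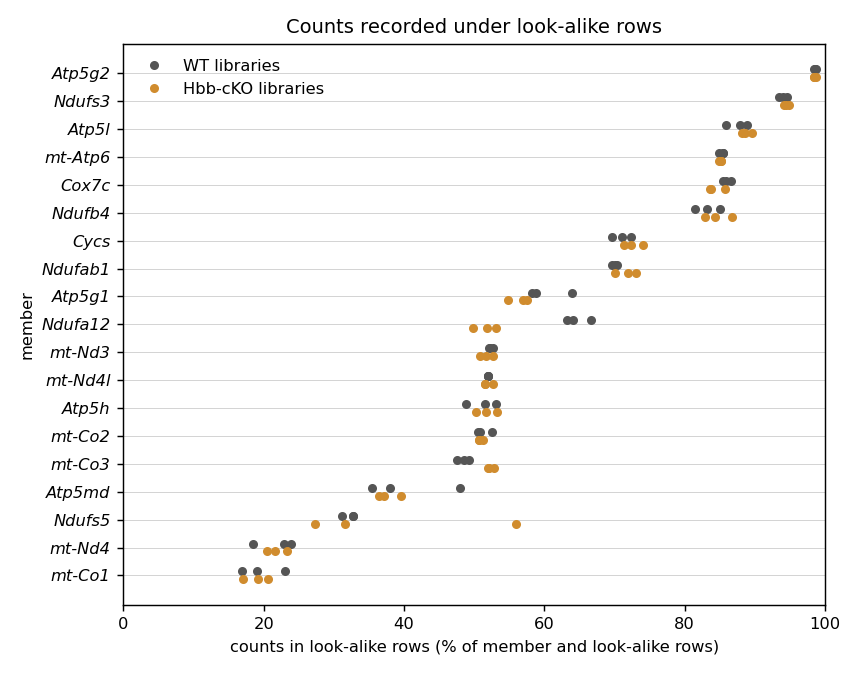
Counts in look-alike rows as a percentage of the counts of member and look-alike rows together, for members with a mean share over 15%. Each point is a library, WT in grey and *Hbb*-cKO in orange; the *Ndufa12* points of the groups are apart, with WT at 63.2% to 66.7% and *Hbb*-cKO at 49.9% to 53.1%.

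No member passed the test between *Hbb*-cKO and WT. By the quasi-likelihood test of edgeR, with p-values adjusted after Benjamini and Hochberg over all 17175 genes tested, 0 of the 99 tested members had an adjusted p under 0.05, against 18 genes, or 0.105%, of all. DESeq2 called 0 members and 1.45% of all genes. At an unadjusted p under 0.05 there were 3 members, *Cox4i1*, *Ndufa6* and *Cox7a2l*, while 10.1% of all genes were under it. The smallest adjusted p of any member was 0.372. Fold changes were small, from −0.49 to 0.35 on the log2 scale, with standard errors (SE) from 0.11 to 0.34 and 95% confidence intervals of single members that together span −1.10 to 0.74.

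Most members had fold changes slightly below 0. Of the 99 tested members, 78 had a log2 fold change below 0, or 78.8%, against 52.5% of all genes tested. The median was −0.08 over the members, −0.09 over the nuclear and −0.07 over the mitochondrially encoded ones, against −0.01 over all genes. In 6 members every *Hbb*-cKO library was below every WT library, where 8.96% of all genes were so placed: *Ndufa6*, *Uqcrh*, *Cox4i1*, *Cox7a2l*, *Atp5l* and *mt-Atp6*. In 1 member, *Cox6b2*, every *Hbb*-cKO library was higher, where 8.70% of all genes were. Both counts of members were under the share in all genes. Without WT library 1 the number below 0 was 90 of 99, and without WT library 2 it was 58. The median of the mitochondrially encoded members was 0.01 without WT library 3, so its sign rested on that library.

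**Figure D3:**
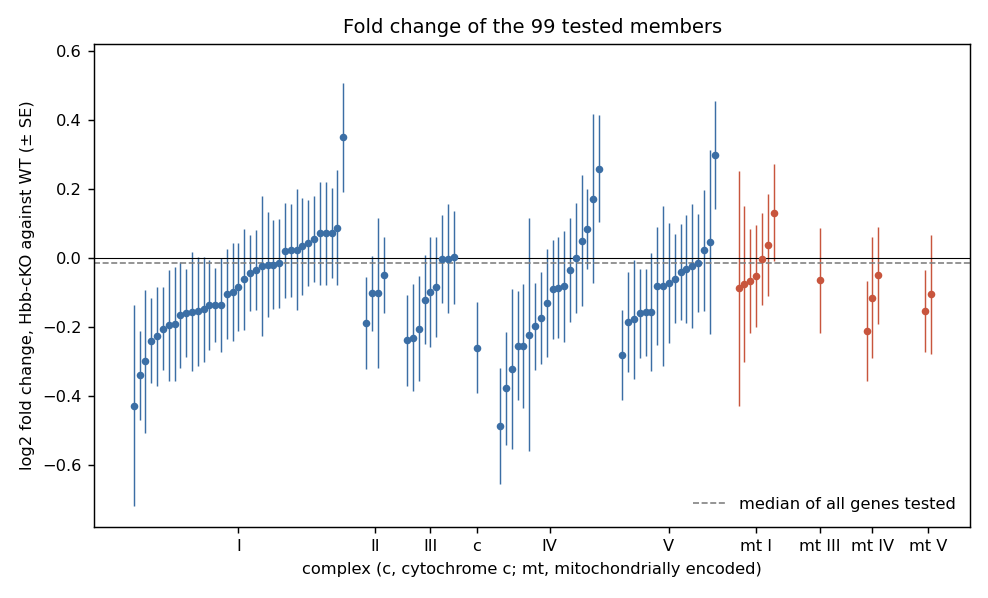
Log2 fold change of each tested member, *Hbb*-cKO against WT, with its standard error, ordered within each complex (c, cytochrome c; mt, mitochondrially encoded). The dashed line is the median of all genes tested, −0.01; the points run from −0.49 (*Cox4i1*) to 0.35 (*Ndufa12*).

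The median nuclear member varied more among WT libraries than between groups. WT library 1 was the lowest WT library for 70 of the 86 tested nuclear members and the highest for 0. The median nuclear member lay 0.20 below the WT mean in log2 CPM in WT library 1, 0.13 above it in library 2 and 0.07 above it in library 3. In *Hbb*-cKO the same medians were 0.01, −0.12 and −0.13. *Hbb*-cKO library 1 thus lay between WT libraries, and libraries 2 and 3 lay between WT library 1 and the other two. Mitochondrially encoded members ordered the WT libraries otherwise. Their medians were 0.02, −0.15 and 0.14 in WT and −0.02, −0.01 and −0.19 in *Hbb*-cKO, and 9 of the 13 were lowest in WT library 2 and 8 highest in WT library 3. The ratio of the highest to the lowest library had a median of 1.34 among nuclear members in WT and 1.16 in *Hbb*-cKO, and was larger in WT for 68 of 86.

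**Figure D4:**
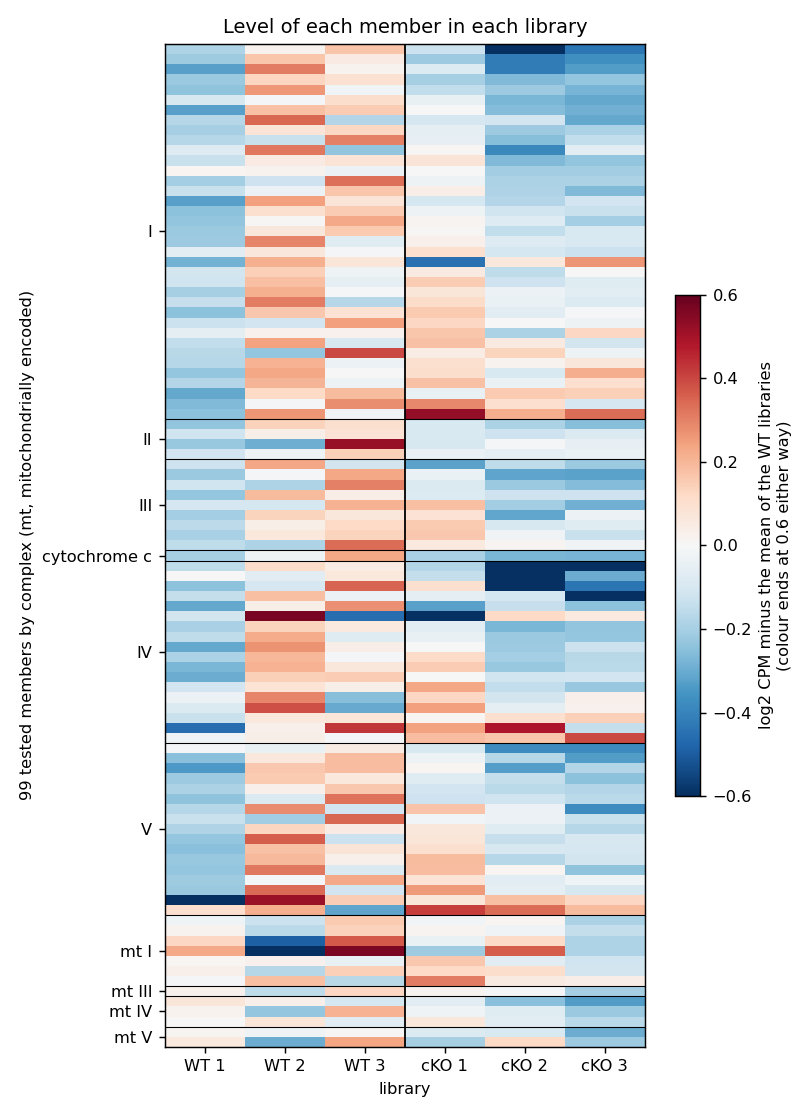
Log2 CPM of the 99 tested members minus the mean of the WT libraries, 1 row per member, grouped by complex and genome, with WT libraries left of the black line and *Hbb*-cKO libraries right of it. Blue is lower and red higher; the nuclear block is mostly blue in WT library 1, where 70 of 86 members had their lowest WT level.

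Nuclear members of complex I, the NADH dehydrogenase, numbered 37 and all were tested. Their log2 fold changes had a median of −0.08, with 26 below and 11 above 0. *Ndufa6*, an accessory subunit, measured 83.7, 109 and 100 CPM in WT and 83.5, 72.7 and 75.3 CPM in *Hbb*-cKO. All *Hbb*-cKO libraries were lower, though library 1 of the knockout lay just under library 1 of WT. Its log2 fold change was −0.34 (SE 0.13, adjusted p = 0.431, edgeR). *Ndufv1*, which holds the site that oxidizes NADH, measured 108, 138 and 135 CPM in WT and 110, 105 and 108 CPM in *Hbb*-cKO, and the groups overlapped through WT library 1 (log2 fold change −0.24, SE 0.12, adjusted p = 0.561).

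*Ndufa12*, another accessory subunit, had the highest fold change of all members. It measured 25.3, 36.2 and 29.7 CPM in WT and 43.4, 35.0 and 37.9 CPM in *Hbb*-cKO, with WT library 2 above *Hbb*-cKO library 2. The log2 fold change was 0.35 (SE 0.16, adjusted p = 0.509). Summed with its look-alike row *Ndufa12-ps*, the log2 fold change was −0.11 (SE 0.14, adjusted p = 0.859), of the opposite sign. *Ndufs3*, the lowest row of the complex, measured 1.20, 1.40 and 1.56 CPM in WT and 1.25, 0.852 and 0.991 CPM in *Hbb*-cKO (log2 fold change −0.43, SE 0.29, adjusted p = 0.677).

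The mitochondrially encoded core subunits of complex I form the membrane arm that pumps protons. *mt-Nd1* measured 3708, 3457 and 4208 CPM in WT and 3732, 3807 and 3311 CPM in *Hbb*-cKO, and *mt-Nd4* 3130, 2759 and 3390 CPM against 3119, 3042 and 2787 CPM. *mt-Nd2* measured 1773, 1542 and 1922 CPM against 1889, 1870 and 1613 CPM. In each of these WT library 3 was the highest and WT library 2 the lowest of the WT libraries. Their log2 fold changes were −0.07 (SE 0.15), −0.05 (SE 0.15) and 0.04 (SE 0.15).

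The widest spread of any member was in *mt-Nd4l*, with 236, 117 and 298 CPM in WT, a highest library 2.55 times the lowest, and 174, 260 and 178 CPM in *Hbb*-cKO. *mt-Nd5* measured 2364, 1546 and 2802 CPM in WT, 1.81 times from lowest to highest, and 2108, 2350 and 1909 CPM in *Hbb*-cKO. In both, the *Hbb*-cKO libraries all lay within the range of WT. *mt-Nd3* measured 296, 339 and 266 CPM in WT and 369, 310 and 307 CPM in *Hbb*-cKO (log2 fold change 0.13, SE 0.14). Among WT libraries *mt-Nd3* was highest in library 2. *mt-Nd6*, alone among the members on the opposite strand of the mitochondrial genome, was even, with 1176, 1188 and 1130 CPM in WT and 1301, 1115 and 1071 CPM in *Hbb*-cKO (log2 fold change −0.00, SE 0.13). The sources used here do not give the strand setting of the counting, so reads of *mt-Nd6* and of transcripts from the facing strand cannot be told apart. Adjusted p-values of the 7 ranged from 0.817 to 0.998.

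Complex II, succinate dehydrogenase, is also an enzyme of the TCA cycle. All 4 members had log2 fold changes below 0, from −0.19 to −0.05, and adjusted p-values from 0.685 to 0.924. The flavoprotein *Sdha* measured 256, 245 and 431 CPM in WT and 281, 298 and 290 CPM in *Hbb*-cKO. Here 1 library stood apart, WT library 3, and without it the log2 fold change of *Sdha* was 0.21 in place of −0.10. The iron-sulfur subunit *Sdhb* measured 156, 202 and 196 CPM against 172, 160 and 154 CPM (log2 fold change −0.19, SE 0.13). The membrane anchors were closer, *Sdhc* with 129, 137 and 154 CPM against 136, 134 and 136 CPM and *Sdhd* with 162, 181 and 187 CPM against 166, 162 and 166 CPM.

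Complex III passes electrons from ubiquinol to cytochrome c. Of its 9 nuclear members 8 had a log2 fold change below 0, with a median of −0.10. The hinge protein gene *Uqcrh* measured 136, 174 and 138 CPM in WT and 119, 133 and 127 CPM in *Hbb*-cKO, all lower, with a log2 fold change of −0.24 (SE 0.13, adjusted p = 0.585). *Uqcrc1*, a core protein, measured 294, 341 and 402 CPM against 333, 275 and 275 CPM, and *Uqcrfs1*, the Rieske iron-sulfur protein, 180, 172 and 241 CPM against 184, 168 and 163 CPM. Both overlapped between groups, through *Hbb*-cKO library 1. *Uqcrc2*, the other core protein and the lowest member of the complex per length, measured 175, 172 and 246 CPM against 202, 197 and 192 CPM (log2 fold change −0.00, SE 0.16). The mitochondrially encoded *mt-Cytb* measured 4853, 4284 and 5187 CPM against 4814, 4721 and 4150 CPM (log2 fold change −0.07, SE 0.15, adjusted p = 0.929).

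Cytochrome c, the mobile carrier that also acts in apoptosis, had 1 member. *Cycs* measured 46.7, 52.5 and 63.1 CPM in WT and 46.8, 44.4 and 44.2 CPM in *Hbb*-cKO. The groups met at WT library 1 and *Hbb*-cKO library 1. The log2 fold change was −0.26 (SE 0.13, adjusted p = 0.555). Its look-alike rows include *Gm10053*, which the annotation types as protein coding, and summed with them *Cycs* stood at 60.1 ± 7.07 CPM per 1000 bases in WT, against 17.3 ± 1.54 alone.

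Complex IV, cytochrome c oxidase, held the lowest fold change of all members. *Cox4i1*, the common isoform of subunit 4, measured 326, 391 and 374 CPM in WT and 320, 236 and 222 CPM in *Hbb*-cKO. All *Hbb*-cKO libraries were lower, library 1 by little and libraries 2 and 3 by much. The log2 fold change was −0.49 (SE 0.17, unadjusted p = 0.0200, adjusted p = 0.372, edgeR), and with each library left out in turn it lay between −0.67 and −0.39. *Cox7a2l*, known for a part in supercomplexes of complexes III and IV, measured 158, 151 and 165 CPM in WT and 143, 93.1 and 128 CPM in *Hbb*-cKO, also all lower (log2 fold change −0.38, SE 0.16, adjusted p = 0.494). The testis-type *Cox6b2* was low, with 6.53, 6.81 and 6.58 CPM in WT and 7.56, 7.47 and 8.78 CPM in *Hbb*-cKO, all higher (log2 fold change 0.26, SE 0.15, adjusted p = 0.623). Of the 18 nuclear members tested in this complex, 14 had a log2 fold change below 0, and the median was −0.11.

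The mitochondrially encoded core of complex IV did not separate the groups. *mt-Co1* measured 12071, 10120 and 13732 CPM in WT and 11653, 11308 and 10187 CPM in *Hbb*-cKO, within the range of WT in every knockout library. *mt-Co2* measured 3194, 3370 and 3050 CPM against 3357, 3062 and 2859 CPM, and *mt-Co3* 3026, 2939 and 2674 CPM against 2754, 2418 and 2283 CPM. For *mt-Co3* the groups met only at WT library 3 and *Hbb*-cKO library 1. Its log2 fold change was −0.21 alone (SE 0.14, adjusted p = 0.675) and −0.10 with its look-alike row (SE 0.16, adjusted p = 0.886).

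Complex V, the ATP synthase, had 17 nuclear members tested, 14 of them below 0, with a median log2 fold change of −0.07. *Atp5l*, subunit g of the membrane part, measured 22.9, 22.4 and 23.7 CPM in WT and 21.5, 17.6 and 17.6 CPM in *Hbb*-cKO, all lower (log2 fold change −0.28, SE 0.13, adjusted p = 0.527). With its look-alike rows, which held 88.3% of the sum, the log2 fold change was −0.15 (SE 0.13, adjusted p = 0.758). *Atp5j2*, subunit f, had the opposite sign, with 133, 144 and 99.3 CPM in WT and 165, 156 and 141 CPM in *Hbb*-cKO, where WT library 2 passed *Hbb*-cKO library 3 (log2 fold change 0.30, SE 0.16, adjusted p = 0.564).

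*mt-Atp6*, subunit a that lines the proton path, was the most even member in WT, with 502, 489 and 498 CPM. It measured 469, 466 and 404 CPM in *Hbb*-cKO, all lower, with a log2 fold change of −0.15 (SE 0.12, adjusted p = 0.720). *mt-Atp8* measured 406, 318 and 460 CPM in WT and 340, 424 and 336 CPM in *Hbb*-cKO, and its knockout libraries lay within the WT range (log2 fold change −0.11, SE 0.17, adjusted p = 0.892).

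Several complex IV subunits have a common isoform and another bound to a tissue. The proteins translated from the GENCODE coding sequences of each pair differ, with 48.6% of aligned residues identical between *Cox4i1* and *Cox4i2*, 51.7% between *Cox6a1* and *Cox6a2*, 55.4% between *Cox7a2* and *Cox7a1* and 40.8% between *Cox8a* and *Cox8b*. The isoforms known from heart and skeletal muscle were abundant. *Cox6a2* took 46.8%, 42.0% and 53.1% of the counts of its pair in WT and 47.1%, 45.6% and 42.9% in *Hbb*-cKO. *Cox8b* took 32.0%, 29.3% and 45.3% of its group in WT and 34.8%, 27.1% and 28.2% in *Hbb*-cKO, and *Cox7a1* took 20.9%, 22.2% and 31.6% in WT and 28.5%, 34.8% and 25.8% in *Hbb*-cKO. All 3 shares were highest among WT libraries in library 3, which also had the highest mean log2 CPM of the 21 skeletal muscle markers. That mean was 9.55, 9.71 and 10.23 in WT and 9.79, 9.59 and 9.56 in *Hbb*-cKO. In *Hbb*-cKO, the share of *Cox7a1* was highest in library 2, whose muscle level was not. By CPM, *Cox8b* and *Cox7a1* were also highest among WT libraries in library 3. *Cox6a2* was highest by CPM in WT library 2, at 238 against 230 in library 3.

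*Cox4i2*, an isoform known from lung and for induction by hypoxia, took 7.70%, 10.1% and 5.40% of the counts of its pair in WT and 4.86%, 11.9% and 12.1% in *Hbb*-cKO. It measured 27.2, 43.7 and 21.3 CPM in WT and 16.4, 32.0 and 30.6 CPM in *Hbb*-cKO, with the lowest value in *Hbb*-cKO library 1 and the highest in WT library 2. That library, *Hbb*-cKO 1, also had the lowest sum of the 14 chondrocyte markers, which was 42040, 45560 and 35490 CPM in WT and 18750, 61370 and 43800 CPM in *Hbb*-cKO. *Cox6b2* took 3.55%, 2.85% and 3.17% in WT and 3.34%, 4.08% and 4.64% in *Hbb*-cKO, and overlapped. The part of muscle or cartilage content in these shares was not tested.

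**Figure D5:**
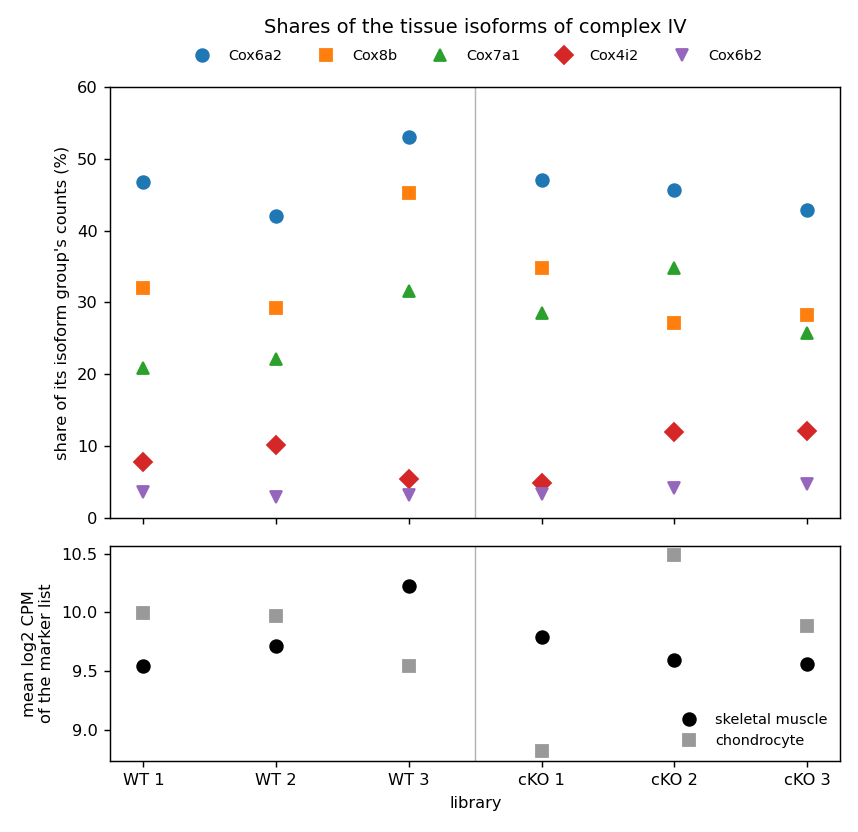
Top, share of the counts of its isoform group taken by each tissue isoform of complex IV in each library (percent, axis from 0). Bottom, mean log2 CPM of the skeletal muscle and chondrocyte marker lists in the same libraries. The shares of *Cox6a2* and *Cox8b* and the muscle markers are all highest in WT library 3, at 53.1%, 45.3% and 10.23. By CPM, *Cox6a2* was highest among WT libraries in library 2.

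The common isoforms showed the same libraries. *Cox6a1* measured 236, 328 and 203 CPM in WT and 297, 241 and 255 CPM in *Hbb*-cKO, and *Cox8a* 205, 257 and 176 CPM against 229, 195 and 215 CPM. Both were lowest in WT library 3, where their muscle counterparts took their largest shares. *Cox7a2* measured 131, 170 and 138 CPM against 141, 124 and 123 CPM (log2 fold change −0.17, SE 0.13), and *Cox6b1* 178, 232 and 201 CPM against 219, 175 and 180 CPM (log2 fold change −0.09, SE 0.15). *Cox7b* measured 121, 164 and 165 CPM against 148, 137 and 137 CPM and took every count of its pair, since *Cox7b2* had none. Of the muscle isoforms, *Cox6a2* measured 207, 238 and 230 CPM against 264, 203 and 192 CPM, and *Cox8b* 96.4, 107 and 146 CPM against 123, 72.3 and 84.5 CPM. *Cox7a1* measured 34.5, 48.3 and 63.8 CPM against 56.1, 66.3 and 42.8 CPM. The log2 fold changes of these 3 were −0.04 (SE 0.15), −0.32 (SE 0.23) and 0.17 (SE 0.24).

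Subunit c forms the rotating ring of the ATP synthase, and 3 genes encode the same mature protein with different import signals. By the rows alone, *Atp5g3* took 75.8%, 74.2% and 76.0% of the counts of the 3 genes in WT and 76.7%, 76.6% and 79.1% in *Hbb*-cKO, all higher. *Atp5g1* took 23.2%, 24.6% and 23.2% in WT and 22.3%, 22.4% and 20.1% in *Hbb*-cKO, all lower, and *Atp5g2* took 1.02%, 1.19% and 0.778% in WT and 1.07%, 1.02% and 0.802% in *Hbb*-cKO. The order depended on the look-alike rows. With them *Atp5g3* took a mean of 36.6% in WT, *Atp5g2* 34.3% and *Atp5g1* 29.1%, and the share of *Atp5g3* then overlapped between groups. That of *Atp5g1* did not, with 26.9%, 30.8% and 29.6% in WT and 26.1%, 25.6% and 24.7% in *Hbb*-cKO. In CPM, *Atp5g3* measured 286, 329 and 389 in WT and 351, 316 and 326 in *Hbb*-cKO, *Atp5g1* 87.7, 109 and 119 against 102, 92.7 and 82.8, and *Atp5g2* 3.83, 5.29 and 3.98 against 4.89, 4.21 and 3.30. By the rows alone none of the 3 had an adjusted p under 0.721. Summed with its look-alike row, *Atp5g1* had a log2 fold change of −0.33 (SE 0.17, adjusted p = 0.550) in place of −0.19.

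The nuclear members come from scattered places, so a shared promoter sequence was looked for. RefSeq promoters of build GRCm38.p6, from 250 bases before to 50 after the start, were matched by symbol for 71 of 88 nuclear symbols, and motifs were searched on both strands. The core of NRF1, an activator of respiratory genes, spelled GCGCATGCG, was in 9 members, or 12.7%, against 1.95% of all 27025 genes with a promoter. The YY1 core AAGATGGCG was in 7, or 9.86%, against 1.64%, and the ERR core TCAAGGTCA in 2, or 2.82%, against 0.466%. The ETS core CCGGAAGTG, bound by GABP, was in 2, or 2.82%, against 2.25%. The MEF2 core CTAAAAATA was in 0 members against 0.588% of all, and the E-box CAGCTG in 6, or 8.45%, against 18.3%. None of these shares was tested, and a match describes letters only. The NRF1 core reads nearly alike on both strands, and a gene was counted once if any of its promoters matched.

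The stretches below show these matches in members described above, 5′ to 3′ on the strand of the gene, with the motif in capitals, at chr15:102671070-102671099 (*Atp5g2*), chr9:44920965-44920992 (*Atp5l*), chr5:115349101-115349130 (*Cox6a1*), chr6:50566612-50566640 (*Cycs*), chr2:73911360-73911388 (*Atp5g3*) and chr7:140900450-140900475 (*Cox8b*), all on the minus strand. The NRF1 core is held by *Atp5g2* and *Cox6a1* on both strands and by *Atp5l* and *Cycs* as its reverse complement, the ERR core by *Atp5g3* as its reverse complement, and the E-box by *Cox8b*.
Atp5g2: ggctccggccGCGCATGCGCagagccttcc
Atp5l: aaccaataaCGCATGCGCatttccccca
Cox6a1: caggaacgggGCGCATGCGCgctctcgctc
Cycs: catgctagctCGCATGCGCgcgcacaaac
Atp5g3: tgttacaaagTGACCTTGAgcgtcttccc
Cox8b: tgacaggagaCAGCTGcagctctcca

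None of the other gene lists of the pathway held a call by edgeR or DESeq2. Of 43 assembly factors tested, 0 passed the test in either direction and 22 had a log2 fold change below 0, with a median of −0.01. The nearest to the threshold was *Cox18*, which inserts a complex IV subunit into the membrane, with 10.1, 12.8 and 14.1 CPM in WT and 15.1, 16.2 and 15.5 CPM in *Hbb*-cKO, all higher (log2 fold change 0.34, SE 0.16, adjusted p = 0.529). *Sdhaf1* and *Sdhaf4*, which help assemble complex II, had log2 fold changes of −0.29 each (SE 0.14). Of 19 genes of the TCA cycle and pyruvate dehydrogenase, 0 passed and 16 were below 0, with a median of −0.07. *Idh3g*, a subunit of isocitrate dehydrogenase, was the nearest (log2 fold change −0.27, SE 0.12, adjusted p = 0.499), followed by the pyruvate carrier *Mpc1* (−0.38, SE 0.23) and *Suclg2* (0.61, SE 0.47).

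Among 16 genes of mitochondrial biogenesis and gene expression 0 passed, 10 were below 0, and the median was −0.03. *Twnk*, the helicase that unwinds mitochondrial DNA for replication, measured 19.5, 20.9 and 20.2 CPM in WT and 14.6, 14.8 and 13.9 CPM in *Hbb*-cKO. All knockout libraries were lower by more than the spread within either group, with a log2 fold change of −0.49 (SE 0.12, unadjusted p = 0.00326, adjusted p = 0.236, edgeR). *Tfb2m*, needed to start mitochondrial transcription, measured 13.2, 13.6 and 12.2 CPM against 8.81, 11.3 and 9.72 CPM, also all lower (log2 fold change −0.39, SE 0.15, adjusted p = 0.436). *Pprc1*, a coactivator, overlapped between groups (0.30, SE 0.21). Of 14 carriers, uncoupling proteins and hypoxia-linked genes, 12 were tested and 0 passed, with 8 below 0 and a median of −0.14. The uncoupling protein gene *Ucp2* (log2 fold change −0.27, SE 0.16), the protease gene *Lonp1* (−0.14, SE 0.10) and *Pdk4* (−0.74, SE 0.55), which restrains pyruvate dehydrogenase, were the nearest to the threshold. *Ndufa4l2*, which shares the name of the members without being one, a relative of *Ndufa4* known as a hypoxia target, measured 114, 189 and 97.2 CPM against 92.1, 181 and 171 CPM.

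Markers of other cells moved between libraries beside these values. Of the 21 skeletal muscle markers, 17 had a log2 fold change below 0 and the median was −0.32, and 0 passed in edgeR and 2 in DESeq2. Myoglobin *Mb* and the fast-fibre *Actn3* were below WT in every knockout library (log2 fold changes −0.63, SE 0.13, and −0.49, SE 0.17) and the myosin *Myh2* above it (0.89, SE 0.22). With the mean log2 CPM of that list as a covariate, the number of members below 0 was 60 of 99 in place of 78, the median of the nuclear members −0.02 and that of the mitochondrially encoded ones −0.00. The 6 markers of slow muscle and heart summed to between 215 and 546 CPM in WT and 466 and 508 CPM in *Hbb*-cKO. Among the erythroid markers, 6 of the 10 tested were below 0, and their sum was between 13460 and 36870 CPM in WT and 8812 and 11750 CPM in *Hbb*-cKO. In edgeR 0 of them passed, and in DESeq2 5 did, namely *Alas2*, *Hba-a1*, *Hba-a2*, *Hbb-bs* and *Hbb-bt*, all lower. The 9 adipocyte markers summed to between 391 and 827 CPM against 533 and 946 CPM, and *Ucp1*, which marks brown fat, was at 0 in 4 libraries and at most 1.32 CPM. The 7 neutrophil markers were all above 0 in log2 fold change, with sums of 16.4 to 36.1 CPM against 26.0 to 120 CPM, and the 4 osteoblast markers summed to 528 to 904 CPM against 370 to 978 CPM. The part of any of these cells in the members' values was not tested. The muscle covariate only changes the model over 6 libraries and is no such test. With no covariate, 58 members were below 0 without WT library 2 and 64 without WT library 3.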

How the data were processed

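Poly(A) RNA of 3 WT and 3 *Hbb*-cKO libraries was measured. The authors deposited a table of raw counts per gene, and their processing notes list HISAT2 2.1.0, fastp 0.19.5, CASAVA 1.8, edgeR and StringTie. The sources used here do not give the build, the strand or the treatment of reads with several matches, but positions matched GENCODE M21 for 54907 of 55227 shared identifiers and for all 102 members. All 15 pairs of libraries differed beyond sampling noise (chi-square per gene 22.2 to 60.8). For its RNA-seq of *Hba* and *Hbb* in cartilage the study gives 3 independent biological samples, without naming the knockout libraries. Because the number of mice per library is not given, p-values measure the spread between libraries, of which a part may be technical.

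Counts were scaled by TMM and tested with edgeR 4.0.16 (robust quasi-likelihood, filterByExpr minimum count 10) in R 4.3.3 over the whole table, with Benjamini-Hochberg adjustment. DESeq2 1.42.0 was an alternative. Intervals are 95%. Columns of per-sample values that belong to no sample numbered 0. Lengths were those of the main coding transcript, not the exon length first planned.

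The members, lists of genes and look-alike rows were chosen with earlier results of these data known. Named with values were the members past the threshold, all mitochondrially encoded ones, the tissue isoform groups, the 3 nuclear members with the smallest unadjusted p and the highest and lowest per length of each complex, and the 3 smallest p of each pathway list. *Ndufb9*, *Uqcr10*, *Atp5b*, *Atp5md*, *Cox7c*, *Ndufb4*, *Ndufab1*, *Ndufs5*, *Atp5e*, *Cox5b-ps*, *Ndufa4l2* and the promoters shown were named after their values were seen.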

Additional observations from a re-analysis of the deposited data

Results flagged for a closer look

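The mitochondrial transfer RNAs are outside the subunits described above, and their short transcripts are poorly caught in poly(A) libraries. Among those tested, mt-Tg and mt-Tr were above the WT libraries in every *Hbb*-cKO library, where 8.70% of all genes were so placed. The transfer RNA mt-Tp was below them in every *Hbb*-cKO library (log2 fold change −0.31, SE 0.17), as were 8.96% of all genes. The other tested transfer RNAs overlapped between the groups. mt-Tg had 15, 15 and 18 counts in WT and 58, 51 and 79 in *Hbb*-cKO, a log2 fold change of 1.74 (SE 0.26, adjusted p = 0.0866 in edgeR and 0.00107 in DESeq2). mt-Tr had 16, 7 and 13 counts in WT and 31, 29 and 30 in *Hbb*-cKO, a log2 fold change of 1.11 (SE 0.35, adjusted p = 0.336 in edgeR and 0.3615 in DESeq2). Both mt-Tg and mt-Tr lie beside *mt-Nd3* in the mitochondrial genome, and their counts are small. mt-Tg lies between *mt-Co3* and *mt-Nd3*, and mt-Tr between *mt-Nd3* and *mt-Nd4l*. The copies of these genes are neighbours on chromosome 1, at 24613189-24613971 (*Gm28437*), 24612775-24613119 (*Gm28438*) and 24612407-24612700 (*Gm10222*). Look-alike stretches were not searched for the transfer RNAs, so a split of their reads with such copies was not tested.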

How the results depend on the processing

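In edgeR and in DESeq2, with other size factors, without globin or mitochondrial genes in the scaling, under other filters, at an adjusted p of 0.1, with the muscle covariate and with each library left out in turn, 0 members were called. Over all genes the calls ranged from 1 to 39 as libraries were left out (1 without WT library 1, 2 without *Hbb*-cKO library 3, 6 without *Hbb*-cKO library 2 and 39 without WT library 3), against 18, 249 in DESeq2 and 60 with all genes kept. The nuclear median ranged from −0.18 to −0.01 and the mitochondrially encoded one from −0.12 to 0.01 as libraries were left out. Summing members with their look-alike rows was chosen after seeing the data. It gave medians of −0.10 and −0.07 and turned *Ndufa12* to −0.11.

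With the replicate number of the titles as a block, 0 members and 4 genes in all were called, 76 of 99 members were below 0, and the medians were −0.09 and −0.05. Same-numbered libraries correlated at −0.03, −0.11 and −0.03, and different-numbered ones at −0.07 to 0.10. Same-numbered libraries were thus no more alike than others, but with 3 libraries per group this cannot exclude a pairing.

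Of 43 named members tested, 22 kept their sign in every setting. In DESeq2, with RLE factors, without globin genes and with all genes kept, in that order, *Cox8a* was 0.0069, 0.0069, 0.0089 and 0.013, *mt-Nd6* was 0.0047, 0.0048, 0.0075 and 0.012, and *Uqcrc2* was 0.0046, 0.0046, 0.0091 and 0.012. *Cox8a* was 0.0019 without mitochondrial genes, and with the replicate block *Cox8a* was 0.015 and *Uqcrc2* 0.017. The muscle covariate gave *Uqcrc2* 0.15, *mt-Nd6* 0.0052, *Atp5g3* 0.10, *Cox6a1* −0.0069, *Cox6a2* 0.023, *Cox7b* 0.0024, *mt-Nd4* 1e-04, *mt-Nd4l* 0.065, *mt-Nd5* 0.038, *Sdha* 0.14 and *Sdhc* 0.013. The causes were not tested.

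Leaving out 1 library turned these signs, with ranges from −0.22 to 0.092 for *Atp5g2*, −0.11 to 0.11 for *Atp5g3*, −0.43 to 0.13 for *Cox4i2*, −0.091 to 0.28 for *Cox6a1*, −0.19 to 0.052 for *Cox6a2*, −0.19 to 0.031 for *Cox6b1*, −0.020 to 0.41 for *Cox7a1* and −0.12 to 0.17 for *Cox8a*. Ranges were −0.23 to 0.019 for *mt-Atp8*, −0.11 to 0.0022 for *mt-Co2*, −0.12 to 0.014 for *mt-Nd1*, −0.032 to 0.11 for *mt-Nd2*, −0.12 to 0.018 for *mt-Nd4*, −0.37 to 0.21 for *mt-Nd4l*, −0.27 to 0.12 for *mt-Nd5*, −0.091 to 0.053 for *mt-Nd6*, −0.23 to 0.21 for *Sdha*, −0.10 to 0.024 for *Sdhc* and −0.080 to 0.18 for *Uqcrc2*.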

Other observations

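Transcript length moved with the libraries. Over 14211 protein-coding genes other than the members, Spearman's rho between transcript length and a gene's log2 CPM relative to the WT mean was 0.18, −0.48 and 0.38 in WT and −0.19, 0.20 and −0.01 in *Hbb*-cKO. Over the 86 tested nuclear members it was −0.06, −0.38 and 0.45 in WT and −0.17, 0.22 and −0.00 in *Hbb*-cKO. These are descriptions across genes of the same libraries, which are not independent replicates. The part of length in the members' values was not tested.

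The mitochondrial ribosomal RNA mt-Rnr1 measured 284, 260 and 260 CPM in WT and 242, 193 and 191 CPM in *Hbb*-cKO, with a log2 fold change of −0.36 that did not pass the test (SE 0.13, adjusted p = 0.407 in edgeR and 0.344 in DESeq2). The other ribosomal RNA, mt-Rnr2, measured 320, 287 and 319 CPM against 296, 238 and 229 CPM and overlapped (log2 fold change −0.28, SE 0.14, adjusted p = 0.550 in edgeR).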
